A study of Mus musculus with 36 samples.

Results

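The genes described here are 37 members of the ATF4 response and its amino acid targets: 10 stress transcription factors and regulators, 6 enzymes of amino acid and one-carbon synthesis, 6 amino acid transporters and 15 cytosolic tRNA synthetases. They were found by gene symbol among the probe sets of the expression array, and for each gene the probe set with the highest mean over 36 arrays was kept. Of the 37 members, 36 were among 18193 named genes on the array (Mars under the symbol Mars1), and Dars was not analysed here. A filter on low levels left 35 members among 13924 genes tested, and Atf3 was below it in both fractions.

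Messenger RNA was measured in the forebrain of 18 mice (C57BL/6, genotype Cnp–eGFP-L10a), 6 in each of 3 states. Waking mice were killed in the dark period between 3 and 5 am, after at least 70% of the previous 6 to 7 h awake. Sleep deprived mice had been awake through most of the dark phase and were then kept awake for 4 h of the light period with new objects. Sleep mice were killed in the light phase between 3 and 5 pm, having slept for at least 75% of the previous 6 to 7 h. Each forebrain gave 2 arrays. The bound fraction is the RNA precipitated with the tagged ribosomal protein L10a, which the promoter of the oligodendrocyte gene Cnp drives, and the unbound fraction is the RNA of the supernatant, which holds neurons and other glia. All groups carry the transgene, and waking and sleep differ in time of day as well as in state.

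ATF4 is a transcription factor whose own message is translated better when the initiation factor eIF2 is phosphorylated, as happens when amino acids run short or unfolded proteins collect in the endoplasmic reticulum. It then raises genes that import and make amino acids and charge tRNAs, together with regulators such as Ddit3 (CHOP) and Trib3 that shape the later stress response. Because much of this control acts on translation, the level of Atf4 message need not follow the activity of the protein. Oligodendrocytes, the cells that make myelin, have a high demand for lipid and protein synthesis and make serine through Phgdh, Psat1 and Psph.

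The values are log2 signals of the deposited arrays, and a difference of 1 is 2-fold. Differences between states are given with the standard error (SE) of a limma model and a p-value adjusted by the Benjamini-Hochberg method over all 13924 genes. A gene is called at an adjusted p below 0.05. Precision is limited by how few arrays a group has, and the p-values measure the spread between these animals.

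The fractions separated by cell type markers. The 7 oligodendrocyte markers measured averaged 13.08 to 13.26 log2 per array in the bound fraction, against 10.55 to 11.03 in the unbound fraction. Neuron markers averaged 10.30 to 10.85 in bound arrays, against 11.92 to 12.26 in unbound arrays, so neuron messages were still present in the precipitate. All 8 astrocyte, all 8 neuron, all 6 microglia and the 3 tested endothelial markers were called lower in bound than in unbound arrays. The mean signal of an array hardly varied inside a group (standard deviation 0.002933 to 0.009939) and differed between groups, at 5.93, 5.91 and 5.92 log2 in bound waking, sleep deprivation and sleep and 6.34, 6.41 and 6.40 in the unbound arrays. The sources used here do not say whether the groups were normalized together. A processing difference shared by all arrays of a group could not be told apart from a difference between states. The p-values and the overlap of groups do not measure it. Sex-linked genes set apart 3 animals, waking animals 3 and 5 and sleep deprived animal 11.

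A promoter motif of the pathway was searched for in RefSeq promoter windows (build GRCm38.p6), which were at hand for 29 of the 37 members. TGATGNAA, the composite element that ATF4 binds together with a C/EBP partner, was searched on both strands of the 250 bases before the transcription start. It occurred in 7 of the 29 members (24.1%), against 3.91% of 27025 genes. By window rather than gene, the shares were 21.9% of 32 windows and 3.45% of 32851. Because the members were listed as the ATF4 response, their higher share is not independent of that choice. The lines below print the matches with up to 16 bases on either side, read 5′ to 3′ on the strand of the gene, because they show where the element sits in each member. The capitals mark the motif, which stands as its reverse complement where it was found on the opposite strand.
Atf3 (chr1:191183420-191183459, minus strand): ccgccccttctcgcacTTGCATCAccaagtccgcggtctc
Chac1 (chr2:119351033-119351072, plus strand): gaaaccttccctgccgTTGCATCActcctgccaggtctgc
Slc7a11, distal match (chr3:50443656-50443695, minus strand): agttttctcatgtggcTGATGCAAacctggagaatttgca
Slc7a11, proximal match (chr3:50443637-50443676, minus strand): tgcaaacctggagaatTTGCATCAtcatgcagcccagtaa
Asns (chr6:7693210-7693248, minus strand): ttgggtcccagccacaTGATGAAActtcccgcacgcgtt
Gars (chr6:55037955-55037994, plus strand): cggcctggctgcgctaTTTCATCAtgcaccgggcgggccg
Aars (chr8:111033714-111033753, plus strand): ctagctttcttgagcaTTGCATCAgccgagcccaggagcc
Tars (chr15:11399659-11399689, minus strand): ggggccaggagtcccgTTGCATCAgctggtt

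Slc7a11 was the member with 2 matches, whose printed stretches overlap by sequence. The full CRE palindrome TGACGTCA, which CREB and ATF factors bind, occurred in 1 of the 29 members (3.45%), against 1.77% of all genes. That member was Ppp1r15a, the regulatory subunit of the phosphatase that removes the phosphate from eIF2, and its match is printed for comparison with the composite elements.
Ppp1r15a (chr7:45526269-45526296, minus strand): gaccccgcctctccggTGACGTCAgcac

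A match describes these letters and is not evidence of binding. Of the 7 members with TGATGNAA, 6 were tested and 0 were called by limma in any of the 6 state comparisons below. The smallest adjusted p was 0.11, and 3 of their 36 tests had an unadjusted p under 0.05. Of 21 tested members whose windows lacked it, 11 were called in at least 1 comparison, and so were 33.1% of all genes tested. With 6 tested members carrying the element, nothing was read from the difference between these counts.

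Bound against unbound arrays asked where each member's message was enriched. The enzymes that make serine, the mitochondrial folate enzyme Mthfd2 and the transporter Slc38a2 were high in the bound fraction, while the transporters of the Slc7 family and asparagine synthetase were high in the unbound fraction. Of the 35 members tested, 14 were called higher and 14 lower, against 83.6% of all genes called, 25.5% higher and 58.1% lower. The median member differed by −0.03 log2 and the median gene by −0.35. In bulk fractions, fewer cells of a type, less RNA per cell and a smaller share of a message on ribosomes cannot be told apart.

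All 6 enzymes were called. Phgdh, which starts serine synthesis, was 2.68 ± 0.09 log2 higher in bound than in unbound arrays (SE, n = 18 animals, limma, adjusted p = 1.15e-16). Its difference within an animal ran between 1.98 and 3.63, with a median of 2.64. Psat1 and Psph, the following steps, were higher by 2.49 ± 0.05 and 1.61 ± 0.07. Each of these 3 genes was higher in the bound array of 18 of 18 animals. Mthfd2 was higher by 1.97 ± 0.13 in 18 of 18 animals, and Shmt2, the mitochondrial enzyme that turns serine into glycine, by 0.89 ± 0.15 in 17 of 18. Asns, which makes asparagine, was the exception among the enzymes at −1.38 ± 0.10, lower in 18 of 18 animals.

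Among transporters, Slc38a2, a sodium-coupled carrier of small neutral amino acids also called SNAT2, was 1.85 ± 0.06 log2 higher in bound arrays and higher in 18 of 18 animals. Slc3a2, the heavy chain shared by several Slc7 carriers, was higher by 0.28 ± 0.11 (adjusted p = 0.0216), in 15 of 18 animals. Without the 3 animals that sex-linked genes set apart it was no longer called (0.18, adjusted p = 0.153). The light chains Slc7a11 (−3.24 ± 0.18), which exchanges cystine for glutamate, and Slc7a5 (−2.83 ± 0.13), the large neutral amino acid carrier LAT1, were lower in 18 of 18 animals. So were the cationic amino acid carriers Slc7a3 (−1.98 ± 0.17) and Slc7a1 (−1.75 ± 0.11). Slc7a11 averaged 3.89 log2 in the bound arrays, below the filter level of 4.47 there.

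Of 9 regulators, 3 were higher and 5 lower. Ddit4 (REDD1, an inhibitor of mTORC1) was higher in bound arrays by 1.06 ± 0.05 and Ddit3, a pro-apoptotic C/EBP partner, by 0.76 ± 0.06, both in 18 of 18 animals. Ppp1r15a was higher by 0.25 ± 0.10 in 14 of 18. Chac1, a glutathione-degrading enzyme, stood at −1.98 ± 0.15, the stress sensor Sesn2 at −1.58 ± 0.17, Cebpb at −1.28 ± 0.15, Atf4 at −0.51 ± 0.06 and Atf5 at −0.32 ± 0.10. Averaged with its dim probe set, Ddit3 was lower in bound arrays instead (−0.46). Trib3, the pseudokinase that restrains ATF4, was not called (−0.15, adjusted p = 0.18).

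The 14 tRNA synthetases lay closer to 0. Aars (0.59 ± 0.06), Eprs (0.55 ± 0.05), Iars (0.52 ± 0.07) and Lars (0.24 ± 0.09) were higher in bound arrays. Rars (−1.15 ± 0.08), Cars (−0.45 ± 0.10), Nars (−0.28 ± 0.03) and Vars (−0.20 ± 0.08) were lower, and 6 were not called. Each synthetase loads the amino acid of its first letter onto its tRNA (Aars alanine and Rars arginine, with Eprs loading both glutamate and proline). The calls of Lars (0.18, adjusted p = 0.107) and Vars (−0.17, adjusted p = 0.0862) ended without the 3 animals set apart by sex-linked genes.

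The median of all genes moved to 0.08 after quantile normalization over all 36 arrays, and the split over all genes became 6153 higher and 5327 lower instead of 3555 and 8087. For the members the split became 19 higher and 11 lower instead of 14 and 14. Relative to the median gene, Phgdh stood at 3.04 log2 as deposited and 2.73 after quantile normalization, Psat1 at 2.84 and 2.44, Slc7a5 at −2.47 and −2.37 and Slc7a11 at −2.89 and −2.72. The signs of Vars and Trib3 turned to higher in bound arrays (0.45 and 0.56), and Atf5 and Cars were no longer called.

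**Figure D1:**
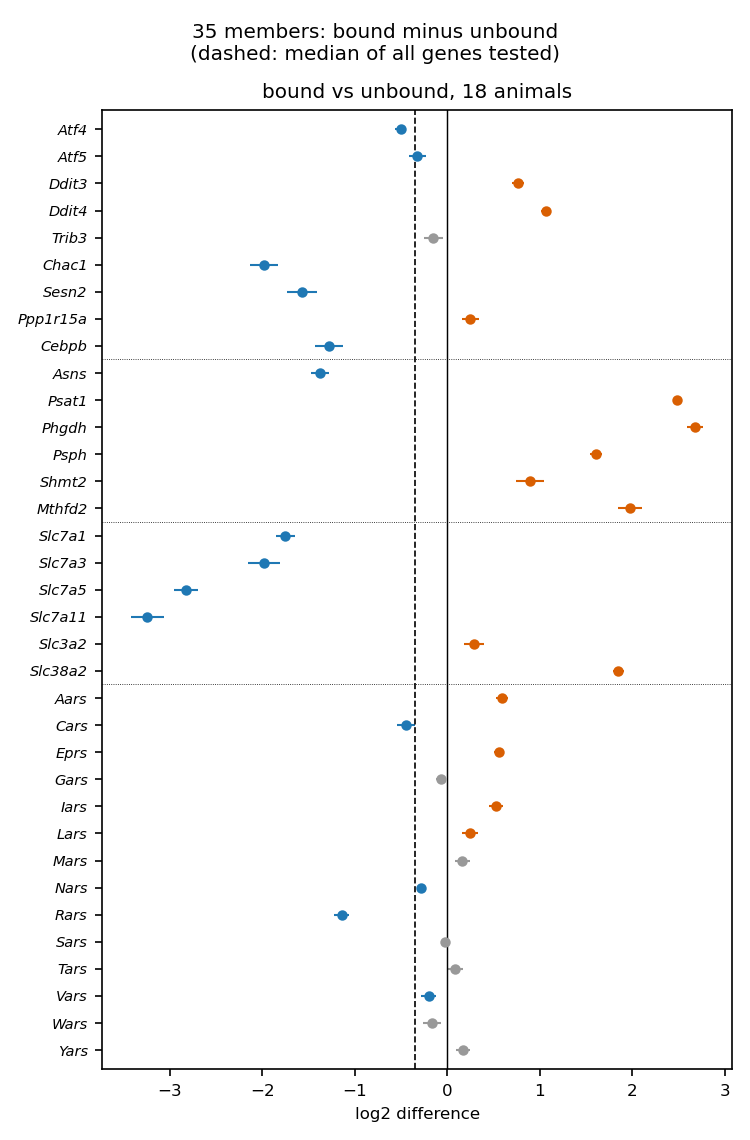
Bound minus unbound difference of each tested member in log2 (horizontal axis), with standard errors, over 18 animals. From the top the rows hold the stress regulators, the enzymes, the transporters and the tRNA synthetases; orange was called higher, blue lower and grey not called, and the dashed line is the median of all genes at −0.35. Phgdh, Psat1, Mthfd2 and Slc38a2 lie at the right edge and Slc7a11 and Slc7a5 at the left.

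The first state comparison set bound waking against bound sleep arrays. Slc38a2, Mthfd2 and Psph rose. Of 35 members, 3 were called higher and 0 lower, against 9.47% of all genes called, 4.68% higher and 4.79% lower. The median member differed by 0.01 log2 and the median gene by −0.01. By role, 2 of 6 enzymes and 1 of 6 transporters rose, and 0 of 9 regulators and 0 of 14 synthetases were called by limma, with 0 and 2 of them at an unadjusted p under 0.05.

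Slc38a2 had a lowest, median and highest signal of 11.15, 11.41 and 11.52 log2 in bound waking arrays, against 10.51, 10.78 and 10.93 in bound sleep arrays. The groups did not overlap, and the lowest waking animal lay above the highest sleep animal. The rise was 0.63 ± 0.09 log2, or 1.55-fold (SE, n = 6 per group, limma, adjusted p = 0.000353).

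Mthfd2, which oxidises one-carbon units from serine in mitochondria, had 9.30, 9.52 and 9.83 log2 in bound waking arrays, against 8.55, 8.80 and 8.90 in bound sleep arrays. These groups did not overlap either. The rise was 0.81 ± 0.14 log2, or 1.76-fold (limma, adjusted p = 0.00123).

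Psph, the phosphatase that releases serine, had 9.95, 10.20 and 10.42 log2 in bound waking arrays, against 9.53, 9.83 and 9.98 in bound sleep arrays. The lowest waking animal fell inside the sleep range and the other 5 lay above it. The rise was 0.40 ± 0.11 log2 (limma, adjusted p = 0.0225). Phgdh and Psat1 differed by 0.20 and 0.09 log2 and were not called.

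Bound sleep deprivation against sleep compared 2 groups killed in the light period. No clock hour of killing was at hand for the sleep deprived mice. Any difference in clock hour, and the new objects, cannot be told apart from the loss of sleep here. Slc38a2 and 3 of the enzymes rose, Ddit4 rose, and 2 tRNA synthetases fell. Of 35 members, 5 were called higher and 2 lower, against 14.4% of all genes called, 7.53% higher and 6.87% lower. The median member differed by 0.14 log2 and the median gene by −0.01. By role, 1 of 9 regulators, 3 of 6 enzymes and 1 of 6 transporters rose, and 2 of 14 synthetases fell. This comparison and the one before it share the sleep arrays.

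Slc38a2 had 11.38, 11.61 and 11.84 log2 in bound sleep deprivation arrays (lowest, median and highest), against 10.51, 10.78 and 10.93 in bound sleep arrays. All 6 sleep deprived animals lay above all 6 sleep animals. The rise was 0.85 ± 0.09 log2, or 1.81-fold (SE, n = 6 per group, limma, adjusted p = 6.54e-06).

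The enzymes moved by smaller steps. Mthfd2 had 8.94, 9.24 and 9.70 log2 in bound sleep deprivation arrays, against 8.55, 8.80 and 8.90 in bound sleep arrays. The groups did not overlap, and the rise was 0.52 ± 0.14 (limma, adjusted p = 0.0166). Phgdh had 12.47, 12.63 and 12.83 log2 in sleep deprivation, against 12.19, 12.34 and 12.49 in sleep. Of the 6 sleep deprived animals, 5 lay above the sleep range, and the rise was 0.30 ± 0.07 (limma, adjusted p = 0.00607). Psat1, among the brightest members at 13.77, 13.90 and 13.95 log2 in sleep deprivation, against 13.63, 13.72 and 13.87 in sleep, rose by 0.15 ± 0.04 (limma, adjusted p = 0.0151). Its groups overlapped by 1 sleep deprived animal. Psat1 was no longer called after quantile normalization of the bound arrays (0.10, limma, adjusted p = 0.093) or without the intensity trend of the model (adjusted p = 0.153).

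Astrocytes also express Phgdh and Psat1, so astrocyte markers stand beside these values. In the bound arrays the 8 astrocyte markers averaged 7.77 to 8.67 log2 per array in waking and 7.87 to 8.61 in sleep deprivation, against 7.78 to 8.45 in sleep. In waking 2 of 8 (25%) were called higher than in sleep, Gjb6 and Fgfr3, and in sleep deprivation 1 of 8 (12.5%), Gjb6. Of 7 oligodendrocyte markers, 1 rose and 2 fell in waking (42.9%) and 2 rose in sleep deprivation (28.6%). Over all genes, 9.47% were called in waking and 14.4% in sleep deprivation. The part of these markers in the enzyme differences was not tested.

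Ddit4 had 12.52, 13.50 and 13.70 log2 in bound sleep deprivation arrays, against 12.68, 12.85 and 13.16 in bound sleep arrays. Sleep deprived animal 7 lay below the whole sleep range and the other 5 above it. The rise was 0.46 ± 0.14 (limma, adjusted p = 0.0348), and it was no longer called after quantile normalization (0.39, adjusted p = 0.0759) or without the 3 animals set apart by sex-linked genes (0.39, adjusted p = 0.101). Nor was it called without the intensity trend (adjusted p = 0.056).

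Lars and Sars load leucine and serine onto their tRNAs. Lars had 8.11, 8.57 and 9.07 log2 in bound sleep deprivation arrays, against 8.97, 9.31 and 9.45 in bound sleep arrays. Of the sleep deprived animals, 5 lay below the sleep range, and Lars fell by 0.67 ± 0.16 log2 (limma, adjusted p = 0.00691). Sars had 11.23, 11.35 and 11.49 log2 in sleep deprivation, against 11.45, 11.60 and 11.75 in sleep. Here too 5 animals lay below the sleep range, and Sars fell by 0.25 ± 0.06 (limma, adjusted p = 0.0116). The other 12 synthetases were not called.

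**Figure D2:**
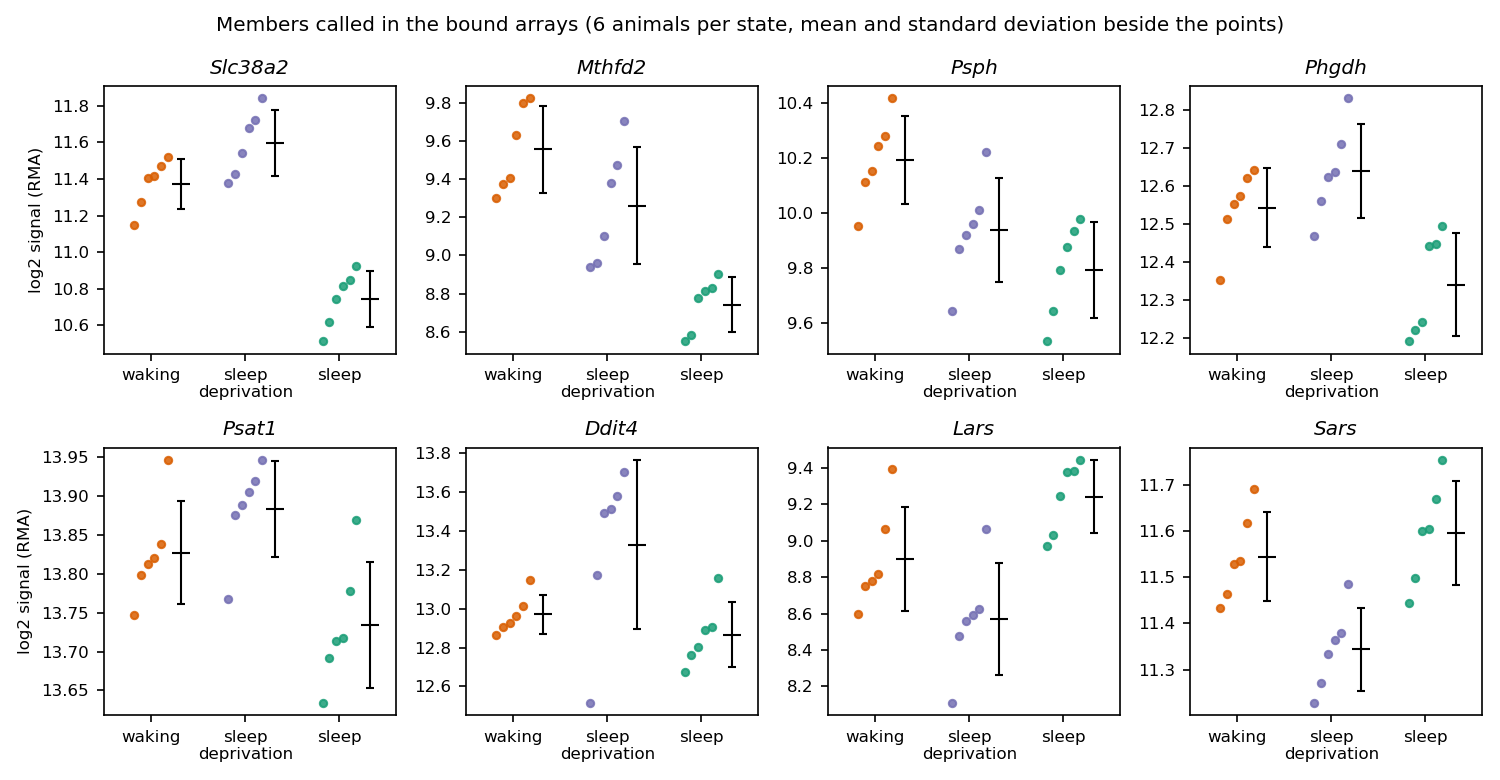
Log2 signal of the 8 members called in the bound arrays, 1 point per animal, 6 animals per state, with the mean and standard deviation beside the points; the vertical axes differ and do not start at 0. Slc38a2 and Mthfd2 show no overlap of waking or sleep deprivation with sleep, while the other members overlap with sleep by at least 1 animal in each comparison shown.

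Several of these genes were measured by more than 1 probe set, and the probe sets did not all show the same. Slc38a2 has 3. The next brightest rose by 0.92 ± 0.12 log2 in bound waking and 1.19 ± 0.12 in bound sleep deprivation against sleep (limma, adjusted p = 0.000178 and 2.07e-06), and the dimmest differed by 0.76 and 1.24. Psat1 rose by 0.17 and 0.19 in its second probe set (adjusted p = 0.0374 and 0.0108).

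The second probe set of Mthfd2 was nearly as bright and differed by −0.09 in bound waking (adjusted p = 0.772) and 0.05 in bound sleep deprivation (adjusted p = 0.873), with overlapping groups. It had 8.51, 8.80 and 9.07 log2 in waking and 8.67, 8.82 and 9.35 in sleep deprivation, against 8.53, 8.95 and 9.18 in sleep. The rise of Mthfd2 is thus that of 1 of its 2 probe sets. The next brightest probe sets of Phgdh (0.11, adjusted p = 0.471) and Sars (−0.05, adjusted p = 0.686) were not called in sleep deprivation against sleep. Psph, Lars and Ddit4 each have 1 probe set.

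**Figure D3:**
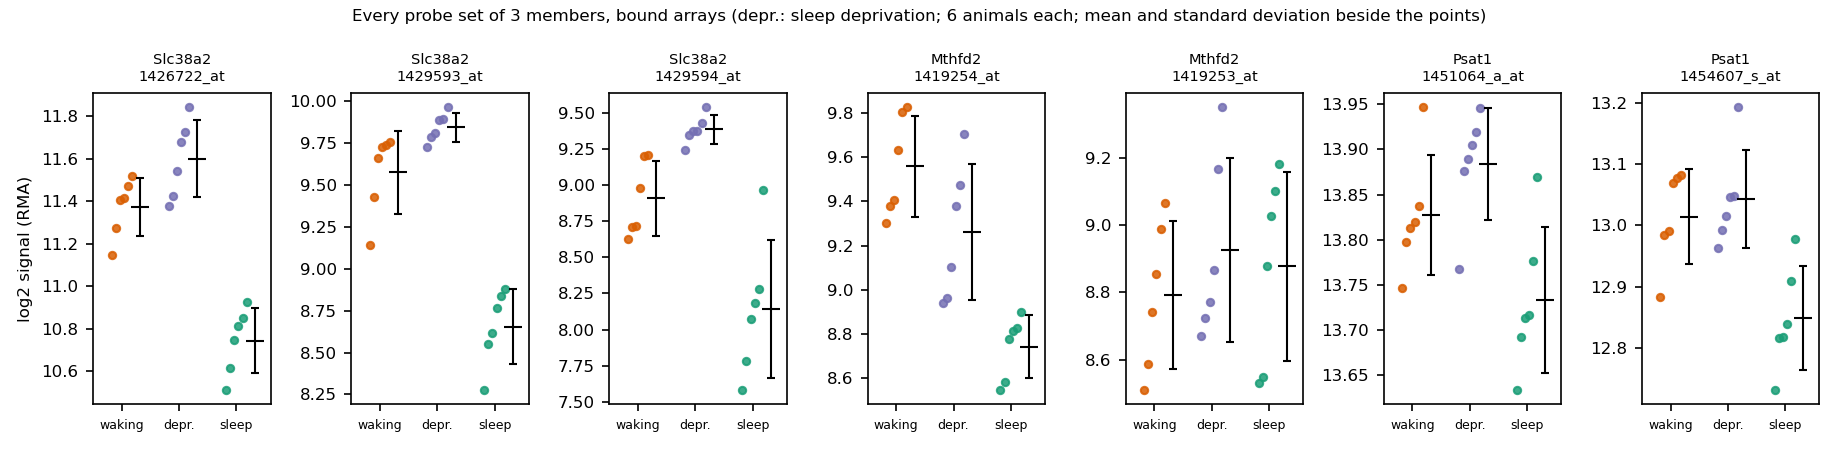
Log2 signal of each probe set of Slc38a2, Mthfd2 and Psat1 in the bound arrays, 1 point per animal, 6 animals per state, with the mean and standard deviation beside the points; the vertical axes differ and do not start at 0. The 3 probe sets of Slc38a2 and the 2 of Psat1 are higher on average in waking and sleep deprivation than in sleep, and the second probe set of Mthfd2 is not.

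Bound sleep deprivation against waking asked how enforced wake by day differed from spontaneous wake by night. Of 35 members, 0 were called by limma, against 5.01% of all genes (2.69% higher and 2.32% lower), and 9 had an unadjusted p under 0.05. Iars came nearest at 0.38 ± 0.11 log2 (adjusted p = 0.0616). Sars differed by −0.20 ± 0.06 (adjusted p = 0.0749) and Ddit3 by 0.43 ± 0.15 (adjusted p = 0.0988). Slc38a2 differed by 0.23 ± 0.09 (adjusted p = 0.163). Quantile normalization within the fraction called 1 member in this comparison, Sars at −0.25 (adjusted p = 0.0256).

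In the unbound arrays the transporter Slc7a5 fell in both wake states, and Ddit3, Ddit4 and Iars rose in sleep deprivation against sleep. In unbound waking against sleep 1 of 35 members was called, against 7.21% of all genes, and it was lower (5.72% of all genes were lower and 1.49% higher). The median member differed by 0.05 log2 and the median gene by −0.09. Slc7a5, a carrier known in brain from the endothelium of the blood-brain barrier, had 7.51, 7.69 and 8.16 log2 in unbound waking arrays, against 8.06, 8.72 and 8.84 in unbound sleep arrays. Of 6 waking animals, 5 lay below the sleep range, and Slc7a5 fell by 0.84 ± 0.18 log2 (SE, n = 6 per group, limma, adjusted p = 0.00709). The split of all genes, 207 higher and 797 lower, became 342 and 338 after quantile normalization within the fraction, where Slc7a5 was still called at −0.75.

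Unbound sleep deprivation against sleep called 3 members higher and 1 lower, against 7.82% of all genes called, 4.65% higher and 3.17% lower. The median member differed by 0.06 log2 and the median gene by 0.02. Ddit3 had 9.79, 9.88 and 10.09 log2 in unbound sleep deprivation arrays, against 9.35, 9.45 and 9.64 in unbound sleep arrays. The groups did not overlap, and the rise was 0.42 ± 0.09 log2 (limma, adjusted p = 0.00764).

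Ddit4 had 11.80, 12.17 and 12.71 log2 in unbound sleep deprivation, against 11.64, 11.71 and 11.86 in unbound sleep. Of the sleep deprived animals, 5 lay above the sleep range, and the rise was 0.46 ± 0.13 (limma, adjusted p = 0.0346). Ddit4 is also known as a target of the glucocorticoid receptor. Its call ended after quantile normalization of the unbound arrays (0.42, limma, adjusted p = 0.0632) and without the intensity trend (adjusted p = 0.0568).

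Iars, which loads isoleucine, had 10.12, 10.56 and 11.12 log2 in unbound sleep deprivation arrays, against 9.42, 10.04 and 10.29 in unbound sleep arrays. Here 5 animals lay above the sleep range, and the rise was 0.63 ± 0.16 (limma, adjusted p = 0.0192). Its second probe set rose by 0.69 ± 0.12 (adjusted p = 0.00207).

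Slc7a5 had 7.41, 8.02 and 8.55 log2 in unbound sleep deprivation arrays, against 8.06, 8.72 and 8.84 in unbound sleep arrays. Here 4 of 6 sleep deprived animals lay below the sleep range, and it fell by 0.60 ± 0.18 (limma, adjusted p = 0.0418). The 6 endothelial markers averaged 5.02 to 5.64 log2 per array in unbound waking and 4.77 to 5.11 in unbound sleep deprivation, against 4.95 to 5.64 in unbound sleep. Of the 3 tested, 0 were called by limma in waking, against 7.21% of all genes, 1 of them at an unadjusted p under 0.05. In sleep deprivation 1 of the 3 fell (33.3%), Esam, against 7.82% of all genes called. Pecam1, Tek and Slco1a4 were below the filter level in both fractions. The part of endothelial cells in the fall of Slc7a5 was not tested.

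Unbound sleep deprivation against waking called 3 members higher and 1 lower, against 9.94% of all genes called, 8.45% higher and 1.49% lower. The median gene itself lay at 0.11 log2 and the median member at 0.10. After quantile normalization within the fraction the median gene lay at 0.00, the split over all genes was 283 higher and 298 lower instead of 1177 and 207, and 0 members were called higher and 2 lower, Slc7a3 and Nars.

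Ddit3 had 9.79, 9.88 and 10.09 log2 in unbound sleep deprivation, against 9.25, 9.61 and 9.70 in unbound waking. These groups did not overlap, and the rise was 0.33 ± 0.09 (limma, adjusted p = 0.0279). Ppp1r15a, with 7.15, 7.23 and 7.49 log2 in sleep deprivation, against 6.56, 6.64 and 7.11 in waking, did not overlap either and rose by 0.55 ± 0.16 (limma, adjusted p = 0.0392). After quantile normalization both differences were smaller and not called, at 0.21 (adjusted p = 0.224) and 0.44 (adjusted p = 0.147).

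Eprs had 9.64, 9.73 and 9.96 log2 in unbound sleep deprivation, against 9.04, 9.40 and 9.72 in unbound waking. The groups overlapped in 3 sleep deprived animals, and the rise of 0.38 ± 0.12 (limma, adjusted p = 0.0462) was not called after quantile normalization (0.24, adjusted p = 0.285). Nor was it called without the intensity trend (adjusted p = 0.0519). Eprs has 4 probe sets, and neither their mean (0.20, adjusted p = 0.219) nor the next brightest (0.45, adjusted p = 0.0588) was called. The third brightest differed by −0.11. Slc7a3 had 6.22, 6.42 and 6.90 log2 in unbound sleep deprivation, against 6.45, 7.32 and 7.83 in unbound waking. Of the sleep deprived animals, 4 lay below the waking range, and it fell by 0.73 ± 0.21 (limma, adjusted p = 0.0346). Without the 3 animals set apart by sex-linked genes neither Slc7a3 (−0.52, adjusted p = 0.205) nor Ppp1r15a (0.51, adjusted p = 0.148) was called.

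Ddit3 has a second, dim probe set, at 4.12 log2 over all arrays. It differed by −0.32 in unbound sleep deprivation against sleep and by −1.32 against waking, opposite to the bright one. In bound sleep deprivation it went the same way as the bright one, at 0.86 against sleep and 0.70 against waking. It averaged 3.28 log2 in the bound arrays, below their filter level of 4.47. The mean of the 2 probe sets gave 0.05 (limma, adjusted p = 0.877) against sleep and −0.49 (adjusted p = 0.0394) against waking in the unbound arrays. In bound sleep deprivation that mean was called, at 0.51 against sleep (adjusted p = 0.00131) and 0.56 against waking (adjusted p = 0.00217). It was also called in unbound waking against sleep (0.55, adjusted p = 0.0269).

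Atf3, an early stress transcription factor and the member below the filter, was examined without the filter after its values had been seen. It had 4.77, 5.08 and 6.06 log2 in unbound sleep deprivation arrays and 3.74, 3.83 and 4.18 in unbound waking arrays, against 2.91, 3.21 and 3.40 in unbound sleep arrays. The 3 groups did not overlap. Without the filter it rose by 2.03 ± 0.17 log2 in sleep deprivation (limma, adjusted p = 2.77e-07) and by 0.71 ± 0.17 in waking against sleep (adjusted p = 0.00963). It was also 1.32 ± 0.17 higher in sleep deprivation than in waking (adjusted p = 5.51e-05). The filter level in the unbound arrays is 5.18, and 4 of the 6 sleep deprivation values and all 6 in each of waking and sleep lay below it, so every comparison here is among dim values. In the bound arrays 6, 5 and 4 of 6 values in sleep deprivation, waking and sleep lay below their level of 4.47. The size of these changes is less certain than the errors say. In the bound arrays Atf3 was not called, at −0.26 in sleep deprivation and 0.14 in waking. The change in sleep deprivation differed between the fractions by −2.28 ± 0.26 as bound minus unbound (limma without the filter, adjusted p = 1.69e-05).

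**Figure D4:**
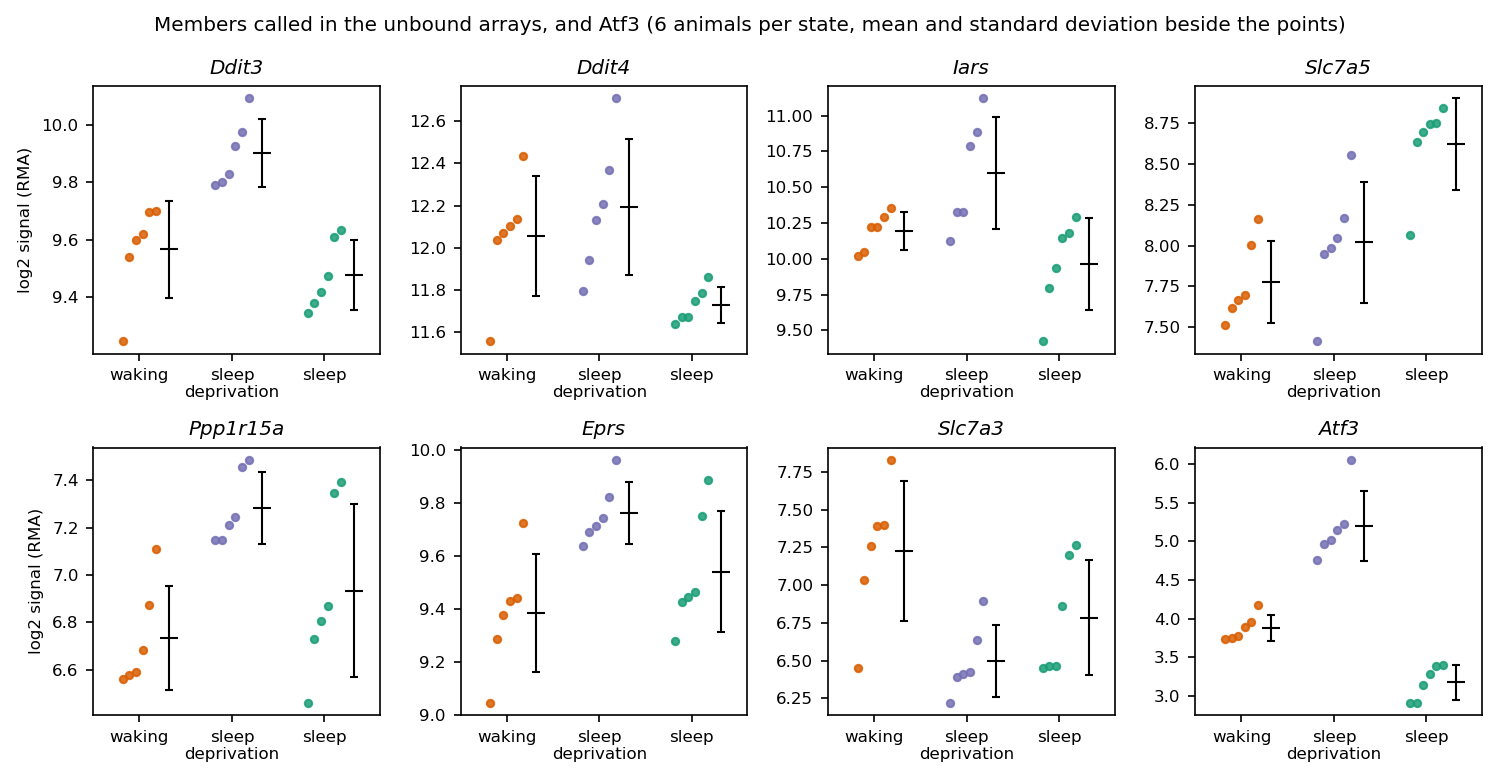
Log2 signal of the 7 members called in the unbound arrays and of Atf3, 1 point per animal, 6 animals per state, with the mean and standard deviation beside the points; the vertical axes differ and do not start at 0. Ddit3 and Atf3 are higher in sleep deprivation than in both other states with no overlap, and Slc7a5 is lowest on average in waking.

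Atf4 itself was not called in any of the 6 state comparisons by its brightest probe set, whose suffix marks possible cross-hybridisation. That probe set had 10.33, 10.62 and 10.75 log2 in bound waking and 10.31, 10.47 and 10.79 in bound sleep deprivation, against 10.24, 10.46 and 10.61 in bound sleep. Its groups overlapped throughout. The second Atf4 probe set had 9.61, 10.00 and 10.32 log2 in bound waking, against 9.33, 9.53 and 9.72 in bound sleep, and rose by 0.45 ± 0.13 (limma, adjusted p = 0.0321).

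In unbound sleep deprivation the same probe set had 10.60, 10.67 and 11.03 log2, above all 6 unbound sleep animals at 10.20, 10.31 and 10.53. The rise was 0.42 ± 0.11 against sleep (limma, adjusted p = 0.0212) and 0.48 ± 0.11 against waking (adjusted p = 0.00884). The third, dimmer probe set differed by 0.43 in bound waking and by 0.12 in unbound sleep deprivation against sleep. In unbound sleep deprivation against waking it differed by −0.11, opposite to the second. The mean of the Atf4 probe sets was called in bound waking (0.34, limma, adjusted p = 0.0162) and unbound sleep deprivation (0.24, adjusted p = 0.0488) against sleep.

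**Figure D5:**
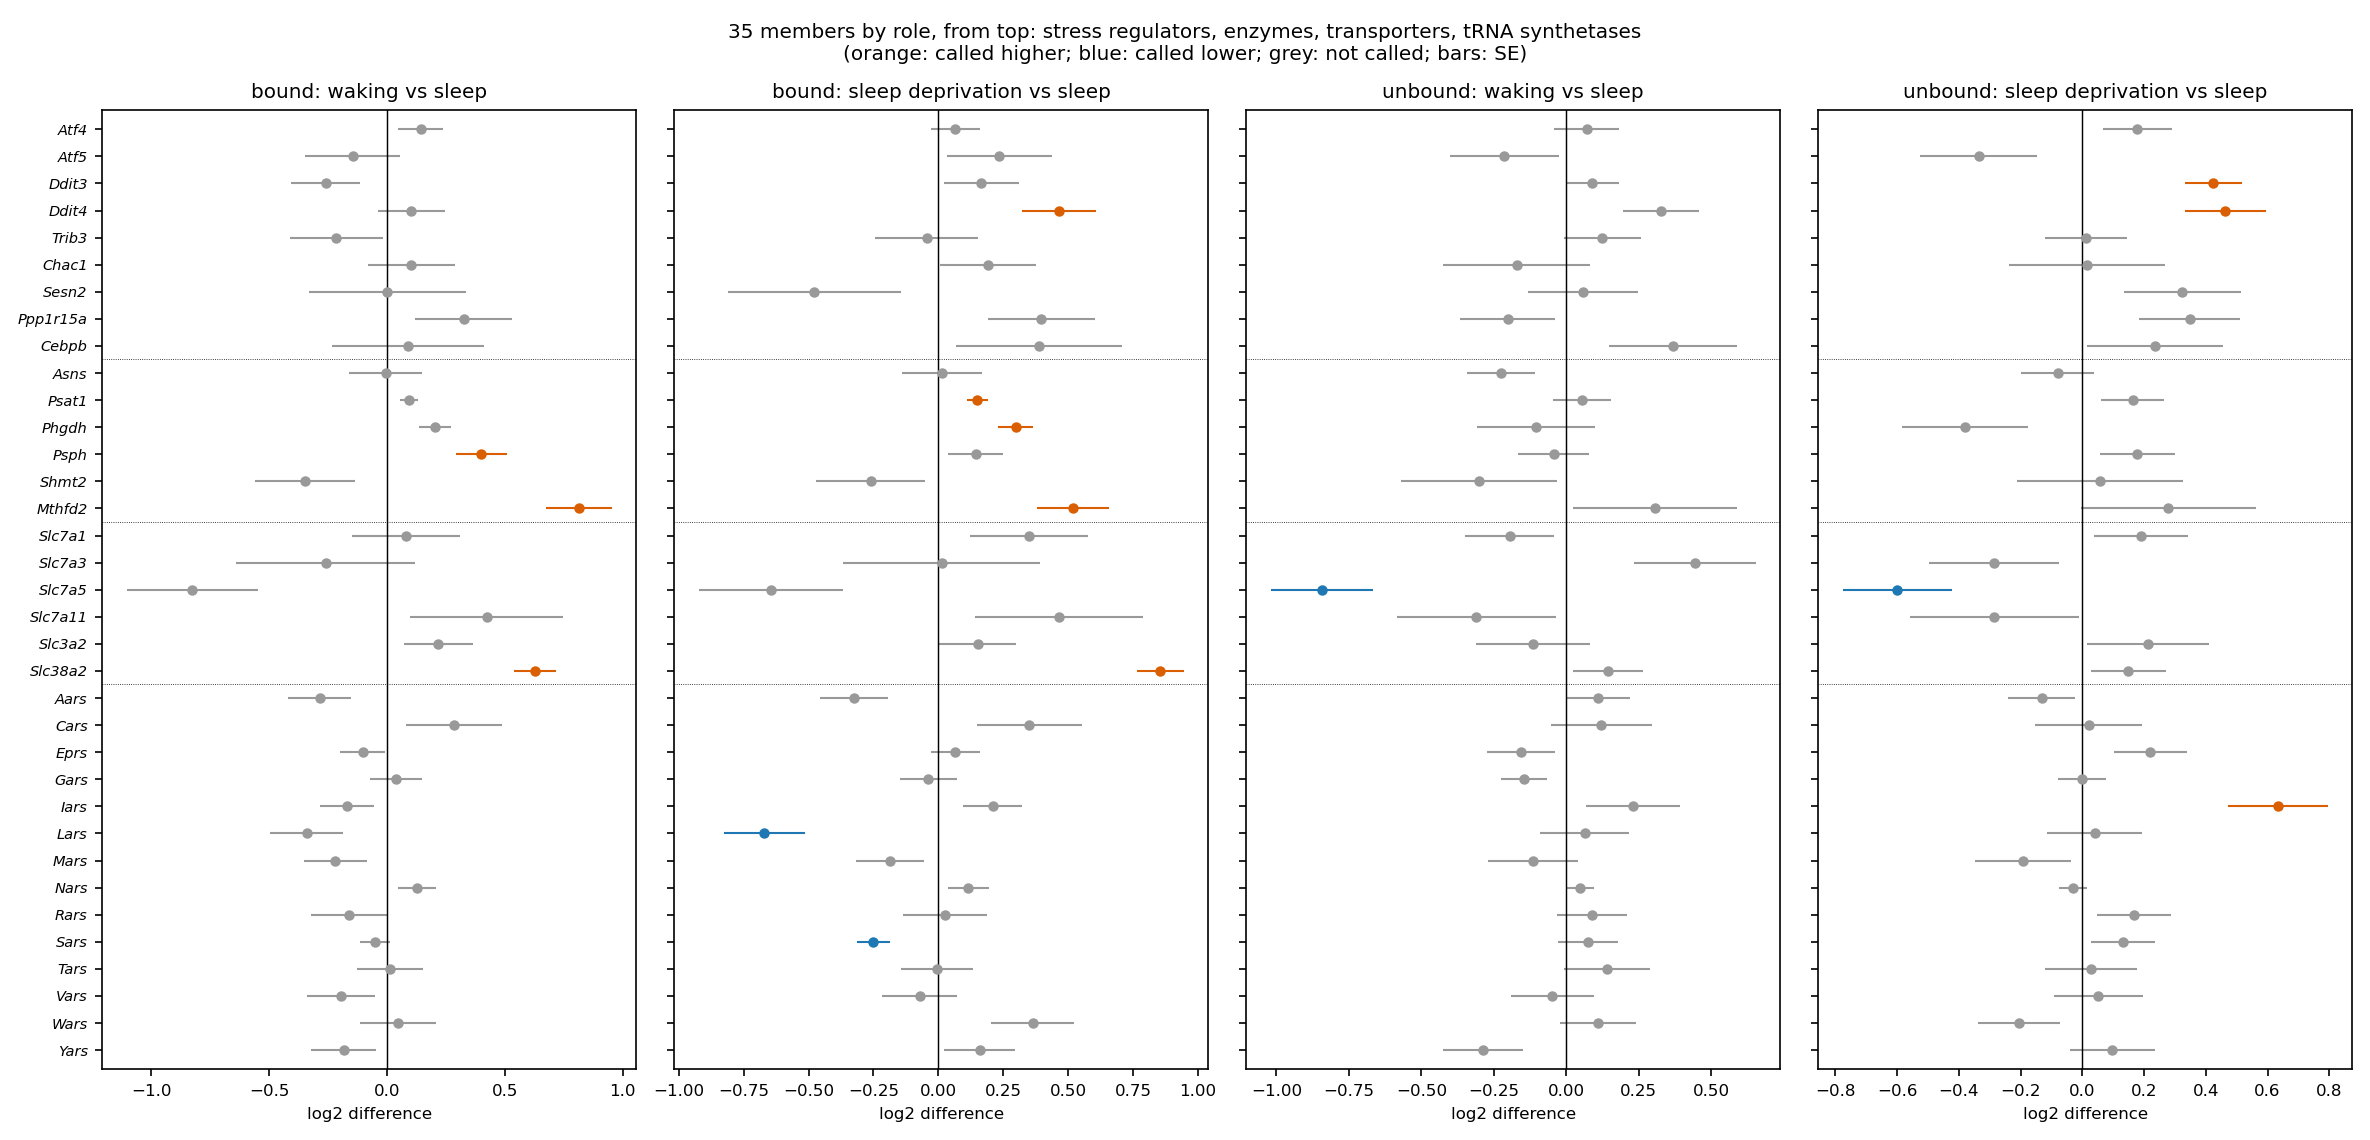
Log2 difference of the 35 tested members (rows, by role from the top: regulators, enzymes, transporters, tRNA synthetases) in waking or sleep deprivation against sleep, with standard errors, in the bound (left pair) and unbound arrays (right pair); the horizontal axes differ. Orange was called higher, blue lower and grey not called. The called members of the bound panels include 4 enzymes and Slc38a2, and in the unbound sleep deprivation panel they are Ddit3, Ddit4, Iars and Slc7a5.

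Whether a state moved a member differently in the 2 fractions was tested within animals, as the bound minus the unbound change. For sleep deprivation against sleep, 1 of 35 members was called higher and 1 lower, against 6.24% of all genes called, 3.03% higher and 3.21% lower. Slc38a2 rose by 0.85 in bound and differed by 0.15 in unbound arrays, and the difference of 0.71 ± 0.15 log2 was called (limma, adjusted p = 0.00655). Its second probe set gave 0.98 ± 0.19 (adjusted p = 0.00453). Sars differed between the fractions by −0.38 ± 0.11 (adjusted p = 0.0477), and that call ended under each alternative tried except leaving out the low-level filter.

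Phgdh (0.68 ± 0.21, adjusted p = 0.0614) and Lars (−0.71 ± 0.22, adjusted p = 0.0627) came next and were not called. For waking against sleep, 0 of 35 members were called by limma, against 5.34% of all genes (3.94% higher and 1.4% lower), and 6 had an unadjusted p under 0.05. The split of all genes there, 549 higher and 195 lower, became 325 and 258 after quantile normalization. Slc38a2 came nearest at 0.48 ± 0.15 (adjusted p = 0.0599). It was called without the low-level filter (adjusted p = 0.0392), without the animal as a block (adjusted p = 0.0465) and with its second probe set (0.84 ± 0.19, adjusted p = 0.0132). Under the other alternatives it was not called. The dimmest probe set of Slc38a2 went another way in waking against sleep, at 0.90 in unbound and 0.76 in bound arrays. In sleep deprivation against sleep that probe set differed by 0.60 in unbound and 1.24 in bound arrays. Slc7a5, which fell in the unbound arrays, differed in the bound arrays by −0.83 in waking and −0.65 in sleep deprivation against sleep. Neither was called (limma, adjusted p = 0.0681 and 0.132), though waking was without the low-level filter (adjusted p = 0.0492). It was dim there, at a mean of 5.31 log2, and 1 of 6 waking arrays lay below the filter level of 4.47. Bound sleep arrays spread widely, at 5.01, 5.60 and 7.03 (lowest, median and highest). The fraction differences of Slc7a5 were 0.02 ± 0.31 and −0.04 ± 0.31.

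Altogether 14 of 35 members (40%) were called in at least 1 of the 6 state comparisons, against 33.1% of all genes tested. These calls came in 19 of 210 tests (9.05%), close to the 8.97% over all genes. The 21 others that were tested were called in none, among them Asns (differences of −0.22 to 0.14 log2), Atf5, Trib3, Chac1, Sesn2, Cebpb, Shmt2, Slc7a1, Slc7a11, Slc3a2 and 10 of the 14 synthetases. The second probe set of Slc7a11 was called in bound sleep deprivation against sleep (0.85 ± 0.20, adjusted p = 0.00823), at a mean of 2.62 log2 in the bound arrays, below their filter level of 4.47. The second probe set of Trib3 was called in unbound waking against sleep (−1.67 ± 0.39, adjusted p = 0.0125), and so was the average over its probe sets (−0.77 ± 0.22, adjusted p = 0.0317), against 0.12 ± 0.13 for the brightest. That second probe set averaged 4.66 log2 in the unbound arrays, below their filter level of 5.18.

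Other genes of the pathway were counted from lists of the same roles. Of 17 further ATF4 and stress response genes, 1 rose and 2 fell in bound waking against sleep, and 2 rose and 1 fell in bound sleep deprivation against sleep. That was 17.6% in each, against 9.47% and 14.4% of all genes in the 2 comparisons. The genes that rose are named next, and those that fell in the bound arrays are only counted. Herpud1, a component of endoplasmic reticulum protein degradation, rose by 0.63 ± 0.19 log2 in bound waking (limma, adjusted p = 0.0451) and by 1.13 ± 0.19 in bound sleep deprivation (adjusted p = 0.000637). Xbp1, a transcription factor of the unfolded protein response, rose by 0.88 ± 0.19 in bound sleep deprivation (adjusted p = 0.00462). In unbound sleep deprivation against sleep 2 of the 17 rose, Jdp2 at 0.61 ± 0.13 (adjusted p = 0.00666) and Xbp1 at 0.52 ± 0.16 (adjusted p = 0.0457), and Vldlr fell.

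Of 13 further amino acid and one-carbon enzymes, 1 rose in bound waking against sleep (Gldc of the glycine cleavage system, 0.85 ± 0.24, adjusted p = 0.0296) and 1 in bound sleep deprivation. That gene was Gpt2, the mitochondrial alanine aminotransferase, at 0.82 ± 0.11 (limma, adjusted p = 9.05e-05). The share called was 7.69% in each of these comparisons, against 9.47% and 14.4% of all genes. In unbound sleep deprivation 2 rose, Gpt2 at 0.53 ± 0.16 and the glutamine synthetase gene Glul at 0.21 ± 0.04 (adjusted p = 0.00101). That was 15.4%, against 7.82% of all genes.

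Of 14 genes of eIF2, its kinases and its exchange factor eIF2B, 0 were called in bound waking, against 9.47% of all genes. An unadjusted p under 0.05 was found for 2 of them. In bound sleep deprivation 1 rose (Eif2b4, 0.49 ± 0.16) and 1 fell (Eif2b3, −0.74 ± 0.15, limma, adjusted p = 0.00273). That was 14.3%, close to the 14.4% of all genes. Of 13 further amino acid transporters, 1 rose (Slc38a9, 0.53 ± 0.13) and 1 fell (Slc6a9, −0.30 ± 0.09) in bound waking. That was 15.4%, against 9.47% of all genes. In bound sleep deprivation 0 of them were called by limma, against 14.4% of all genes, and 4 had an unadjusted p under 0.05. Of 8 further cytosolic synthetase genes, 0 were called in either bound comparison with sleep, against the same 9.47% and 14.4%. Among these 8, 0 had an unadjusted p under 0.05.

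Of 16 mitochondrial synthetases, 1 was called in each bound comparison with sleep (6.25%), against 9.47% and 14.4% of all genes. Aars2 rose by 1.08 ± 0.13 log2 in bound waking (limma, adjusted p = 5.76e-05) and by 0.51 ± 0.13 in bound sleep deprivation (adjusted p = 0.0109). In the unbound arrays it fell instead, at −1.04 ± 0.18 in waking (adjusted p = 0.00185) and −0.64 ± 0.18 in sleep deprivation (adjusted p = 0.034). Of the 16, 0 rose and 3 fell in unbound waking (18.8%, against 7.21% of all genes), the others being Sars2 (−1.03 ± 0.23, adjusted p = 0.0108) and Mars2 (−0.93 ± 0.27, adjusted p = 0.0401). In unbound sleep deprivation 2 rose, Nars2 (0.89 ± 0.19, adjusted p = 0.00707) and Ears2 (1.19 ± 0.36, adjusted p = 0.0461), and Aars2 fell (18.8%, against 7.82% of all genes).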

How the data were processed

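RNA of both fractions of 18 forebrains was hybridised to 36 Affymetrix arrays. The deposited files hold log2 signals, 1 for each probe set, from RMA (per the submitters' processing notes, with no version given), and were used without further normalization. Of 45101 probe sets, 34945 named 1 gene, 932 several, 9160 none and 64 were controls. A gene was tested if its mean in either fraction was no lower than the 40th percentile there (4.47 log2 bound, 5.18 unbound). Tests used limma 3.58.1 (R 4.3.3, package data.table in version 1.17.8; figures and summaries with Python 3.11.15, pandas 2.3.3, numpy 2.4.6 and matplotlib 3.10.9) with an intensity trend, and were tested on simulated data. State contrasts used the 18 arrays of a fraction. Fractions were compared on the per-animal difference, since both come from 1 forebrain by the design. Deviations of an animal's 2 arrays correlated by −0.0032 to 0.0848.

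The members and lists were chosen with earlier results of these data known. Members called in at least 1 state contrast are named with full values, and other list genes only where called. Alternatives were quantile normalization, no filter, the mean of a gene's probe sets, no trend, no animal block, and leaving out 3 animals. The next brightest probe set and the Atf3 values were chosen after seeing the data. Promoters are RefSeq's.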

Additional observations from a re-analysis of the deposited data

Results flagged for a closer look

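In 4 of 84 groups of 6 animals, 1 animal stood apart from the other 5, and chance gives about 1 in 20. Slc38a2 in unbound waking had animal 5 at 9.818 log2, with the others between 9.315 and 9.453. Slc7a5 in unbound sleep had animal 3 at 8.063, with the others between 8.634 and 8.84. Ddit3 in unbound waking had animal 4 at 9.246, with the others between 9.538 and 9.701. Sars in unbound sleep had animal 3 at 11.697, with the others between 11.324 and 11.442.

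The change in sleep deprivation against sleep differed between the fractions for 2 members by limma. For Slc38a2 the bound change was 0.7058 log2 above the unbound change (adjusted p = 0.00655), and for Sars the value was −0.3818 (adjusted p = 0.0477).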

How the results depend on the processing

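The number of members called depended on the filter and on the probe set. Without the low-level filter it was 5 instead of 3 in bound waking against sleep, 2 instead of 0 in bound sleep deprivation against waking, 2 instead of 1 in unbound waking against sleep, and 1 instead of 0 and 5 instead of 2 for the fraction differences of waking and sleep deprivation. With the mean of a gene's probe sets it was 5 in bound waking, 3 in bound sleep deprivation against waking and 3 in unbound waking against sleep. With the next brightest probe set, which 19 members have, it was 3 in bound sleep deprivation against sleep (7 otherwise), 2 in each unbound comparison of sleep deprivation (4 otherwise), 18 for bound against unbound (28 otherwise) and 2 for the fraction difference of waking. With fewer members tested these counts can only partly be compared. Quantile normalization gave 1 in bound and 2 in unbound sleep deprivation against waking and 1 for the fraction difference of sleep deprivation, and leaving out the intensity trend also gave 1 there. Signs turned for Ddit3 with the mean of its probe sets (−0.49 in unbound sleep deprivation against waking, −0.46 between fractions) and Mthfd2 with its next probe set (−0.086 in bound waking). They turned for Trib3 in unbound waking (−0.77 with the mean, −1.67 with the next), between fractions (0.56 quantile, 0.34 mean, 0.84 next) and in the fraction difference of waking (2.01 next), and for Vars between fractions (0.45 quantile). The cause was not tested.

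The same replicate numbers in waking and sleep name different animals, and their deviations correlated by −0.000946 to 0.0868 in bound and −0.00503 to 0.1 in unbound arrays. With the replicate block, 3 and 1 members were called, as without it, and 464 instead of 1004 of all genes in unbound waking against sleep. Without the animal as replicate block, 1 member was called for the fraction difference of waking. All-gene counts without the filter were 2819 and 3551 in bound waking and sleep deprivation against sleep and 2124 between those states, 2382, 2482 and 2771 in the unbound arrays, and 2071 and 2253 for the fraction differences. Without the 3 animals they were 684 and 533 in bound and unbound waking against sleep, 234 and 710 in sleep deprivation against waking and 382 for the fraction difference of waking. With the next probe set they were 578, 894 and 307 in bound, 508, 466 and 667 in unbound arrays, 5516 between fractions and 384 and 358 for the fraction differences. Quantile normalization gave 581 in unbound sleep deprivation against waking. Dim genes were called more often than genes of middle level, as in bound sleep deprivation against sleep (19.5% of the dimmest of 10 level groups, 9.19% of the fourth and 20.5% of the brightest).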
